A study of Arabidopsis thaliana with 12 samples.

Results

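The genes described here are 10 loci of the salicylic acid branch of plant immunity, taken by name and locus identifier. No rule on their measured values was used, but the choice was made with earlier results of these data known. The 10 loci are the synthesis genes ICS1 (AT1G74710) and PBS3 (AT5G13320), the regulators EDS1 (AT3G48090), PAD4 (AT3G52430), NPR1 (AT1G64280), CBP60G (AT5G26920) and SARD1 (AT1G73805), and the pathogenesis-related genes PR1 (AT2G14610), PR2 (AT3G57260) and PR5 (AT1G75040). All 10 were present among the 37336 genes of the deposited tables. Transcripts were measured by RNA-seq in Arabidopsis thaliana seedlings of the Col-0 background, in 4 groups of 3 samples: CsPYL1-5m plants treated with 5 μM iSB09, CsPYL1-5m plants given mock solution (0.1% DMSO), WT plants treated with 5 μM iSB09 and WT plants given mock solution, all collected after 3 hours. CsPYL1-5m is an abscisic acid (ABA) receptor of sweet orange with engineered changes in its ligand pocket, here HA-tagged and driven by the constitutive 35S promoter in homozygous T3 progeny, and iSB09 is a synthetic ABA receptor agonist made to be used with it. The sources used here do not say which transgenic line, or how many lines, gave the RNA, and they differ on the age of the seedlings, 12 days in liquid media per the sample labels and 10 days per the methods. The study's methods call the 3 replicates of a group independent experiments, and the p-values below measure the spread between these samples.

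As background, Arabidopsis makes most of its defense-related salicylic acid from chorismate in the plastid, where ICS1 forms isochorismate, which is exported and joined to glutamate by PBS3. CBP60G and SARD1 are transcription factors that activate ICS1, EDS1 and PAD4 are lipase-like proteins that pair with each other and act upstream of salicylic acid, and NPR1 is a salicylic acid receptor that works as a coactivator with TGA factors at the PR genes. PR1, PR2 (a beta-1,3-glucanase) and PR5 (a thaumatin-like protein) encode secreted proteins widely used as reporters of this pathway, and ABA is known in Arabidopsis as an antagonist of salicylic acid-dependent defense.

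In short, the genes of this pathway were not moved as one block. In CsPYL1-5m plants EDS1, PAD4, CBP60G and PR5 passed the test as lower under iSB09, as did 42.3% of all genes, and for CBP60G and PR5 this depended on the fit, while ICS1 and NPR1 transcripts differed from mock by at most 0.04 on the log2 scale and SARD1 was not lowered. In WT plants no member passed the main test. PR1 differed most between genotypes under iSB09, 1.96 ± 1.13 TPM in CsPYL1-5m plants and 13.1 ± 1.06 TPM in WT plants (SD, n = 3 each). The response of PR1 to iSB09 did not pass the main test in either genotype, and nor did the difference between its responses. Among genes of synthesis, the largest change in CsPYL1-5m plants was outside these members, in the other isochorismate synthase gene, ICS2, at 96.2 ± 13.8 TPM under iSB09 and 5.09 ± 2.52 TPM in mock (SD, n = 3 each).

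The 250 bases before the annotated start are shown for EDS1, PAD4, PR2, ICS1 and ICS2. EDS1 and PAD4 fell together in CsPYL1-5m plants, and ICS1 and ICS2 encode the same enzyme activity and behaved differently. PR2 was lower in every CsPYL1-5m sample than in every WT sample given the same treatment, in mock as well as under iSB09. Its call between genotypes under iSB09 depended on the fit, and the difference between its responses to iSB09 did not pass. Capitals mark 2 motifs searched on both strands, ACGTG, the core of the ABA-responsive element, and TTGAC, the core of the W-box bound by WRKY factors (CACGT and GTCAA on the other strand). Sequence and gene starts are from TAIR10.1, 5′ to 3′ on the gene's strand. EDS1 is at chr3:17758148-17758397 (minus strand), PAD4 at chr3:19430845-19431094 (plus strand), PR2 at chr3:21189968-21190217 (minus strand), ICS1 at chr1:28070045-28070294 (plus strand) and ICS2 at chr1:6515123-6515372 (plus strand).
EDS1: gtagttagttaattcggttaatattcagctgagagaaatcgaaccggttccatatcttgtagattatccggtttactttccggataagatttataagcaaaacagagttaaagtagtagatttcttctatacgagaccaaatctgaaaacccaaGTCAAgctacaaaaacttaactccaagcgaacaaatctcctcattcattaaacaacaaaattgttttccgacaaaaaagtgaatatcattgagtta
PAD4: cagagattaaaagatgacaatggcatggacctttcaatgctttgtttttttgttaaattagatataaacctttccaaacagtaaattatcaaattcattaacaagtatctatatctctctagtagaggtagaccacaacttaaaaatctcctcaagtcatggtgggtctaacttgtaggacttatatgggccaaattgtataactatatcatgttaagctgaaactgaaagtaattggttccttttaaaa
PR2: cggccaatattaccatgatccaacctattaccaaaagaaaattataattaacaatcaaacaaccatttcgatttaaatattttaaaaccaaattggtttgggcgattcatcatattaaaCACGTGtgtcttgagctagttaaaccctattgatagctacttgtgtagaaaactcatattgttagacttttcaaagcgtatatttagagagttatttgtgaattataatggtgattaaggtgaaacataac
ICS1: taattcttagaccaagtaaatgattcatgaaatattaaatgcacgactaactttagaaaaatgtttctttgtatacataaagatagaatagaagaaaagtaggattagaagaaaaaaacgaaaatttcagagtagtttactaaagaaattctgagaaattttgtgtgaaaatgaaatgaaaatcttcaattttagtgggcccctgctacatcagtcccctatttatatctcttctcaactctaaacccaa
ICS2: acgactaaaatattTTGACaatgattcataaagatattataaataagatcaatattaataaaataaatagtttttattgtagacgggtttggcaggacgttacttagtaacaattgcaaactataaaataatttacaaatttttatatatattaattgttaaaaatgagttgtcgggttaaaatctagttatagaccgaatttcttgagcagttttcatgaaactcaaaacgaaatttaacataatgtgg

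Windows of 9 members were searched, all but PR1. ACGTG was found in 1 of the 9 (PR2, in a CACGTG palindrome that counts on each strand), against 22.9% of 27429 protein-coding gene windows of the same length. TTGAC was found in 3 of 9, EDS1, SARD1 and PR5, against 44.9% of all windows. SARD1 held 4 copies of it, and 3 of TGACG, the core bound by TGA factors, which overlaps TTGAC in 4 of its letters and was in 1 of 9 members and 18.6% of all windows. GAAATTT, an element to which CBP60G and SARD1 are known to bind, was in ICS1 only among the 9 (2 copies) and in 12.5% of all windows, and ICS2 held 1 copy. The windows of PAD4, PBS3, NPR1 and CBP60G held none of the 4 motifs. A match describes these letters and does not show that a factor binds.

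Depth, recovered from the deposited values, ran from 25746050 to 30696833 reads on genes in the 6 CsPYL1-5m libraries and from 21502003 to 21754261 in the 6 WT libraries, so genotype and sequencing depth cannot be told apart. At 1000 bp, 3 reads were worth 0.158 to 0.235 TPM, a limit that covers counting error only. iSB09 acted in both genotypes: RAB18, RD29B and PP2CA, ABA-responsive genes, had log2 fold changes over mock of 8.44, 9.73 and 4.28 in CsPYL1-5m plants and 5.03, 2.65 and 1.87 in WT plants. Photosynthetic markers summed to 24097 TPM or more in every library and root markers to 89.9 TPM or more, while of 3 floral genes AG and AP3 stayed at or under 1.03 TPM but SEP3 was at 8.10 to 31.3 TPM. The 4 root markers summed to 135 to 156 TPM under iSB09 in CsPYL1-5m plants, 152 to 174 TPM in their mock samples, 89.9 to 125 TPM under iSB09 in WT plants and 130 to 148 TPM in WT mock samples, none of them at 0, and their part in the results was not tested. In whole seedlings, fewer cells of a type and less RNA per cell cannot be told apart. The median log2 fold change of all genes tested was −0.16 for iSB09 in CsPYL1-5m plants, 0.01 in WT plants, −0.17 for CsPYL1-5m against WT under iSB09 and −0.01 in mock samples, and the changes below are to be read against these shifts.

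Both WT libraries with the number 2 stood apart for these genes. Replicate 2 of iSB09-treated WT had the highest level of its group for 8 of the 10 members, the exceptions being PAD4 and PR1, and replicate 2 of WT mock for 8 of 10, the exceptions being EDS1 and NPR1. Replicate 1 of iSB09-treated WT was the lowest of its group for 9 of 10. In CsPYL1-5m groups no library was highest for more than 6. The plot of deviations from the group shows this spread, and values without the WT libraries numbered 2, an alternative chosen after seeing the data, are given for all members tested after their counts and beside related genes where a call changed.

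**Figure D1:**
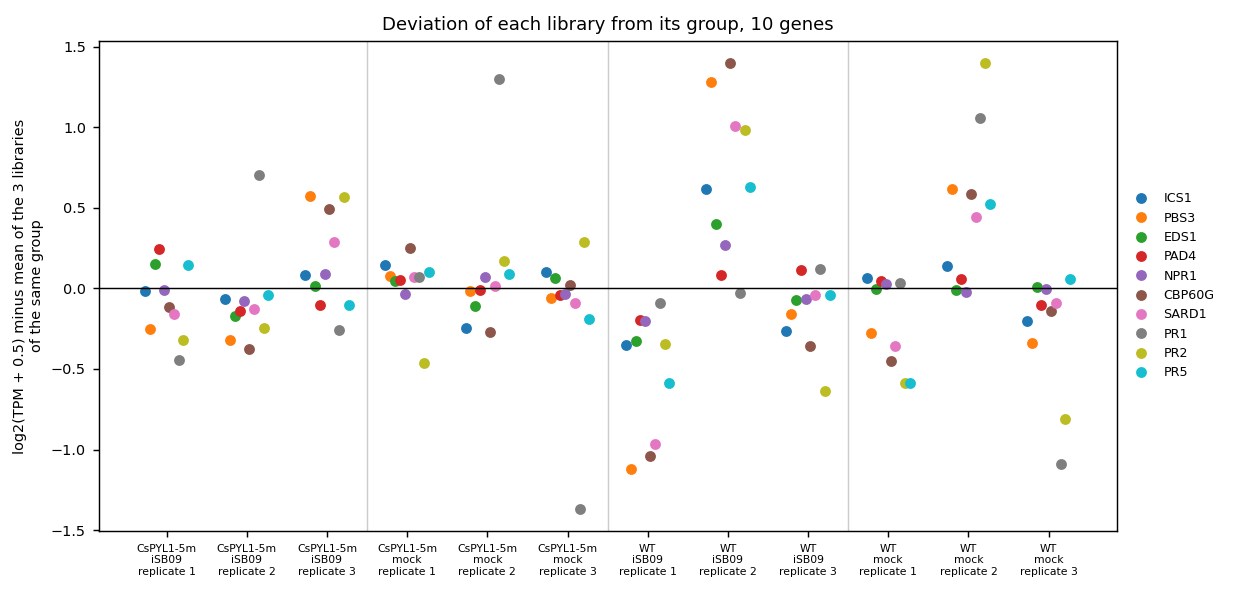
Deviation of log2(TPM + 0.5) from the mean of the 3 libraries of its group (vertical axis) for the 10 members (colors) in each of the 12 libraries (horizontal axis). Most members lie above 0 in replicate 2 of both WT groups and below 0 in replicate 1 of iSB09-treated WT, and the CsPYL1-5m libraries scatter less apart from PR1.

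On the TPM scale, which is corrected for gene length, the members were expressed at low to moderate levels in mock-treated WT. Means of the 3 samples ran from 1.35 ± 0.742 TPM for PBS3 and 1.43 ± 0.563 TPM for SARD1 to 15.5 ± 0.104 TPM for EDS1 and 17.8 ± 6.74 TPM for PR5 (SD, n = 3 each). PR1 was represented by only 14 to 164 reads per library over all 12 samples, and CBP60G by 31 to 413. PBS3 stayed below 1 TPM in at least 1 sample of every group, so it was under the minimum of the test, and the other 9 members were tested in every comparison.

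**Figure D2:**
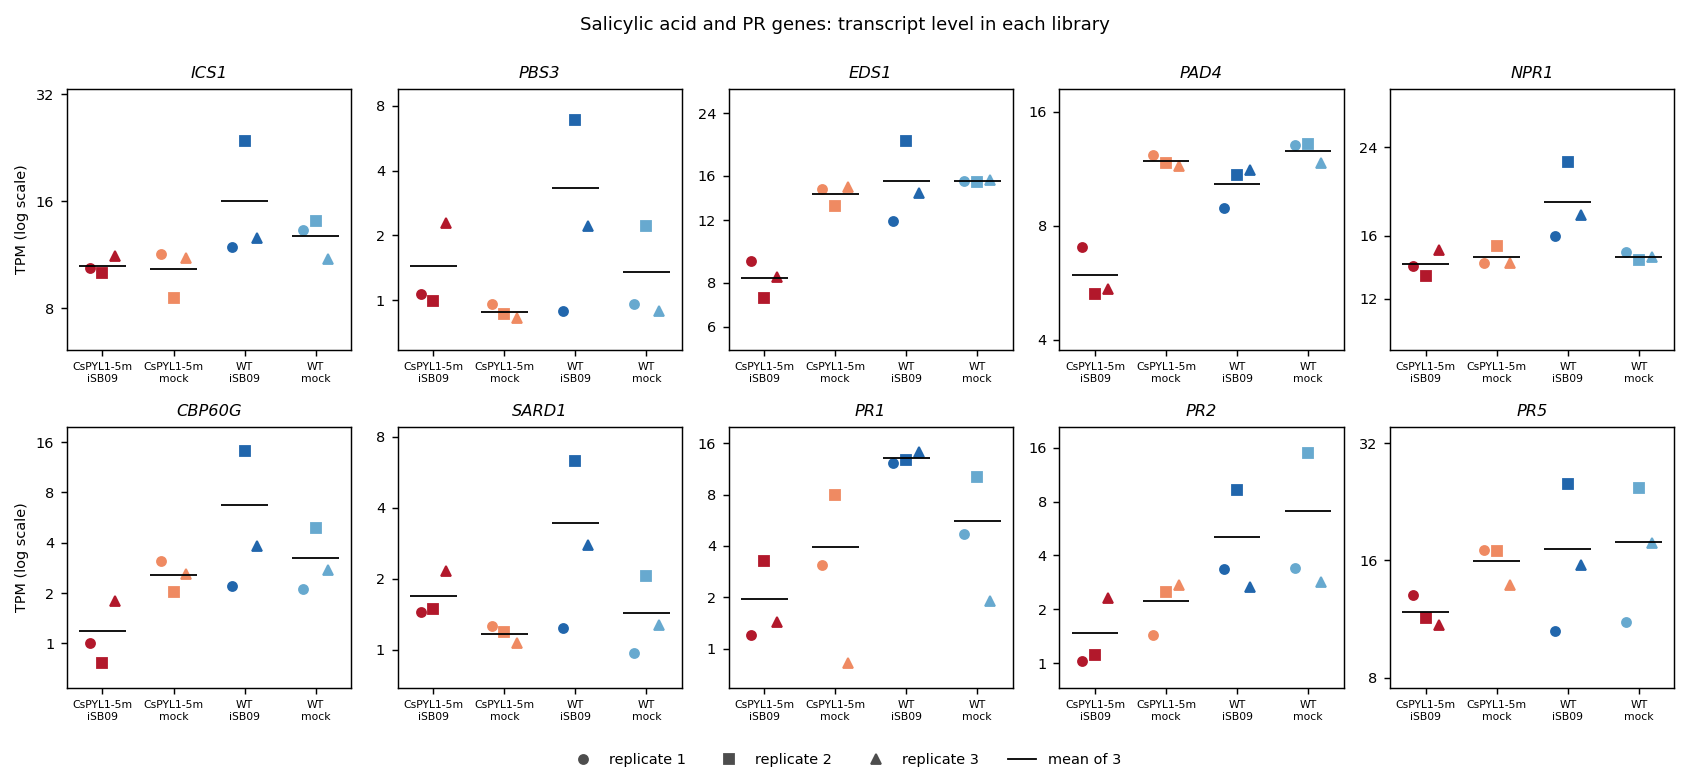
TPM (vertical axes, log scale, a separate range for each gene) of the 10 members in each library, with the 4 groups along the horizontal axis. Symbols give the replicate number and lines the mean of 3. EDS1 and PAD4 in iSB09-treated CsPYL1-5m plants, at 9.17 TPM or less, lie below all other libraries, and PR1 in iSB09-treated WT, at 12.2 TPM or more, lies above all others.

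EDS1 and PAD4, the partners that act upstream of salicylic acid, were both lowered by iSB09 in CsPYL1-5m plants. EDS1 had 9.17, 7.25 and 8.32 TPM in CsPYL1-5m plants under iSB09, against 14.7, 13.1 and 14.9 TPM in CsPYL1-5m mock samples. In WT plants it had 11.9, 20.1 and 14.3 TPM under iSB09, against 15.4, 15.4 and 15.6 TPM in mock. All 3 treated CsPYL1-5m samples were thus below the other 9 libraries, whereas treated WT lay on both sides of its mock samples. PAD4 had 7.05, 5.28 and 5.43 TPM in CsPYL1-5m plants under iSB09, against 12.3, 11.7 and 11.5 TPM in CsPYL1-5m mock samples. In WT it had 8.92, 10.9 and 11.2 TPM under iSB09, against 13.1, 13.1 and 11.7 TPM in mock. PAD4 in the treated samples did not overlap the mock samples in either genotype, with the larger gap in CsPYL1-5m plants.

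The fitted log2 fold changes in CsPYL1-5m plants were −0.75 for EDS1 (SE 0.101, limma adjusted p = 0.00016) and −0.95 for PAD4 (SE 0.113, limma adjusted p = 7.5e-05), so both fell, though neither by the log2 fold change of 1 that a call required. In WT plants the values were −0.04 for EDS1 (limma adjusted p = 0.91) and −0.28 for PAD4 (limma adjusted p = 0.16). The difference between the 2 responses, tested in 1 fit of all 12 samples, was −0.72 for EDS1 (SE 0.216, adjusted p = 0.024) and −0.67 for PAD4 (SE 0.169, adjusted p = 0.010), and without both WT libraries numbered 2 it was −0.51 (adjusted p = 0.029) and −0.66 (adjusted p = 0.020). The EDS1 difference did not pass after median-ratio scaling of the libraries (−0.56, adjusted p = 0.082), nor without mock replicate 1 (adjusted p = 0.052), mock replicate 3 (0.058) or iSB09 replicate 2 (0.065) of CsPYL1-5m, whereas the PAD4 difference passed in every alternative. Under iSB09, CsPYL1-5m plants were lower than WT plants for EDS1 (−0.84, adjusted p = 0.0094) and for PAD4 (−0.76, adjusted p = 0.0045), and in mock samples the 2 genotypes differed by −0.12 and −0.09 (adjusted p = 0.72 and 0.80, all limma).

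Most of the wider EDS1 family and the helper NLR receptors that act with it were also lower in CsPYL1-5m plants under iSB09. Of 7 genes tested on this list, 6 passed the test as lower, beside 42.3% of all genes, and none as higher. The exception was the helper ADR1-L2, at 0.12 (limma adjusted p = 0.12), which passed as higher after median-ratio scaling (0.28, adjusted p = 0.0051). EDS1B, the neighboring paralog of EDS1, had 1.44, 1.29 and 1.25 TPM under iSB09, against 4.33, 3.53 and 3.77 TPM in mock, a log2 fold change of −1.26 (limma adjusted p = 2.3e-05). SAG101, which forms the alternative complex with EDS1, had a log2 fold change of −0.75 (limma adjusted p = 6.0e-05). No stretch of 100 bases of EDS1 or EDS1B exons occurred elsewhere in the genome, so reads of that length can separate the paralogs. In WT plants 1 gene of the 7 passed as higher, the helper NRG1.2 (0.46, limma adjusted p = 0.036), beside 7.50% of all genes. That was lost with the replicate block (adjusted p = 0.061), with no filter (0.060), without any 1 of the 6 libraries (0.052 to 0.13) and without both numbered 2 (0.095). In the difference between responses 5 of 7 passed as lower, beside 21.0% of all genes, among them NRG1.2 at −1.01 (limma adjusted p = 0.00060), EDS1B at −0.89 (0.0017) and SAG101 at −0.96 (0.0039). SAG101 and ADR1-L2 are named after their values were seen.

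Transcripts of the paralogs ICS1 and ICS2 behaved differently. ICS1, the main isochorismate synthase, had 10.4, 10.03 and 11.2 TPM in CsPYL1-5m plants under iSB09, against 11.4, 8.56 and 11.1 TPM in mock, so the groups overlapped. WT plants had 11.9, 23.7 and 12.6 TPM under iSB09, against 13.3, 14.1 and 11.02 TPM in mock, where only replicate 2 stood out. For ICS1 the log2 fold change over mock was 0.04 in CsPYL1-5m plants, with a 95% interval of −0.22 to 0.29, and 0.25 in WT plants, with −0.34 to 0.84.

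ICS2 had 84.1, 93.3 and 111 TPM in CsPYL1-5m plants under iSB09, against 4.05, 7.96 and 3.25 TPM in mock. In WT plants it had 26.1, 5.16 and 18.9 TPM under iSB09, against 10.9, 3.51 and 7.01 TPM in mock. Each treated CsPYL1-5m sample was above every other library. ICS2 exceeded ICS1 in these samples and in replicates 1 and 3 of treated WT, but in no mock sample of either genotype. The log2 fold change was 4.20 in CsPYL1-5m plants (SE 0.258, limma adjusted p = 1.1e-06) and 1.03 in WT plants (SE 0.599, limma adjusted p = 0.29). With the replicate number as a block, since the numbers pair the WT samples, the WT change was called (1.03, limma adjusted p = 0.023), as it was without replicate 2 of treated WT (1.70, adjusted p = 0.021) and without both WT libraries numbered 2 (1.3, adjusted p = 0.019). The responses differed by 3.17 (SE 0.737, adjusted p = 0.0070).

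PBS3, the next enzyme, had 1.07, 0.996 and 2.28 TPM in CsPYL1-5m plants under iSB09, against 0.955, 0.862 and 0.825 TPM in mock. In WT plants the values were 0.891, 6.85 and 2.22 TPM under iSB09, against 0.955, 2.21 and 0.894 TPM in mock. In CsPYL1-5m plants each treated sample was above each mock sample, by little in replicates 1 and 2, and no test was made of this gene. Of the phenylalanine ammonia-lyase genes, which feed the other route to salicylic acid and phenylpropanoids, PAL4 rose and PAL3 fell in CsPYL1-5m plants, with log2 fold changes of 2.37 and −2.01 (limma adjusted p = 3.7e-08 and 2.2e-06). The more abundant PAL1 and PAL2, named after their values were seen, were not called. PAL1 had 164, 169 and 163 TPM under iSB09, against 143, 124 and 128 TPM in mock. PAL2 had 40.8, 41.1 and 44.9 TPM under iSB09, against 88.5, 77.7 and 78.6 TPM in mock.

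**Figure D3:**
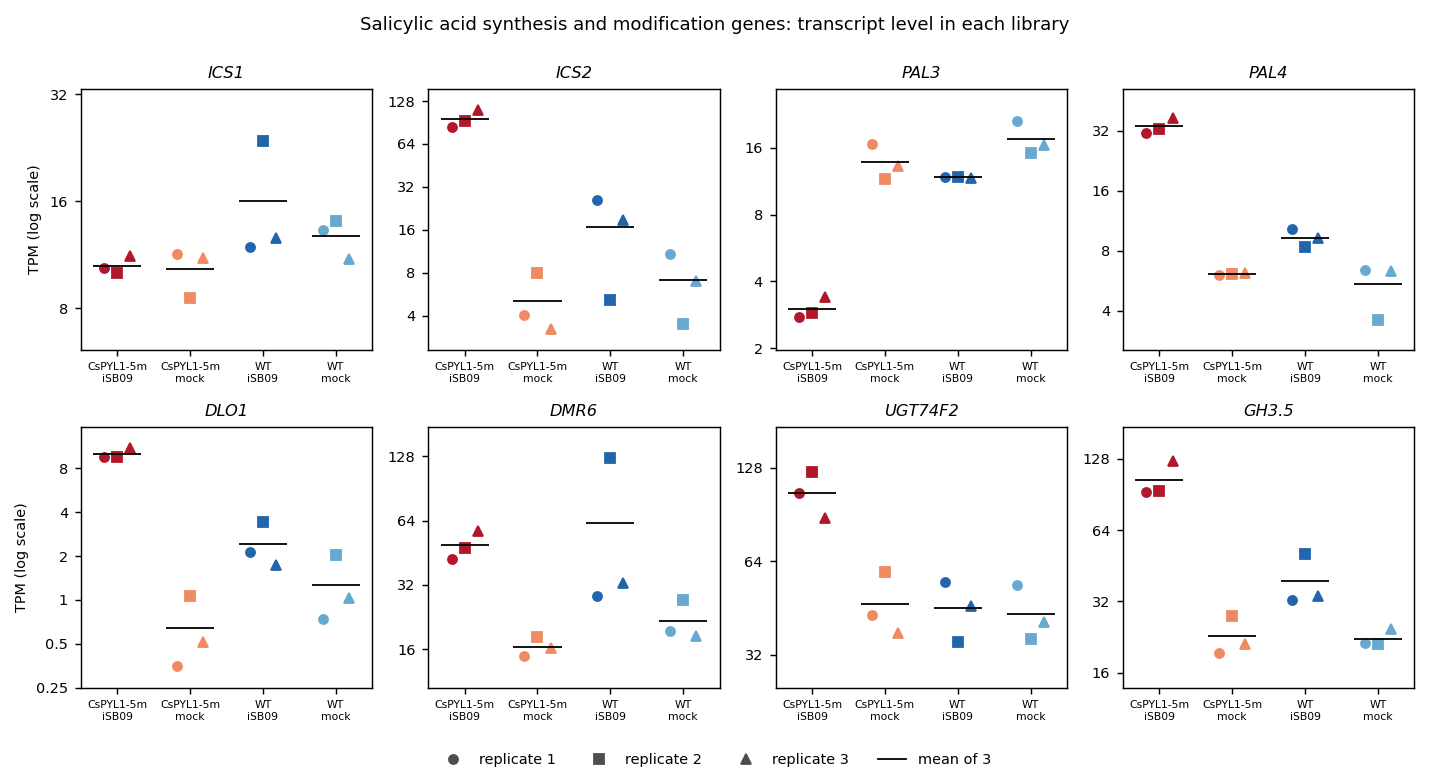
TPM (vertical axes, log scale, a separate range for each gene) of ICS1, ICS2 and other genes of salicylic acid synthesis and modification in each library, by group along the horizontal axis. Symbols give the replicate number and lines the mean of 3. ICS2 reaches 84.1 TPM or more in iSB09-treated CsPYL1-5m plants and stays at 26.1 TPM or less elsewhere, while ICS1 is within 8.56 to 14.1 TPM in all but replicate 2 of iSB09-treated WT.

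The transcription factors CBP60G and SARD1, which are partly redundant activators of ICS1, did not move together. CBP60G had 1.01, 0.763 and 1.80 TPM in CsPYL1-5m plants under iSB09, against 3.11, 2.02 and 2.59 TPM in mock. WT plants had 2.20, 14.1 and 3.83 TPM under iSB09, against 2.12, 4.89 and 2.75 TPM in mock. The treated CsPYL1-5m samples were all below the other 9 libraries, and replicate 2 was the highest of both WT groups. SARD1 had 1.44, 1.48 and 2.15 TPM in CsPYL1-5m plants under iSB09, against 1.26, 1.19 and 1.07 TPM in mock. In WT it had 1.23, 6.31 and 2.78 TPM under iSB09, against 0.967, 2.06 and 1.27 TPM in mock. In CsPYL1-5m plants the treated samples were thus higher than mock for SARD1 and lower for CBP60G, without overlap in either case.

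For CBP60G the log2 fold change over mock was −0.89 in CsPYL1-5m plants (SE 0.232, limma adjusted p = 0.0079), which passed the test, but not in 1 fit of all 12 samples (adjusted p = 0.14). For SARD1 it was 0.38 (SE 0.162, limma adjusted p = 0.066), which passed only after median-ratio scaling (0.50, adjusted p = 0.024) and with limma voom on recovered reads (0.48, adjusted p = 0.047). The WT changes, 0.63 for CBP60G and 0.85 for SARD1, did not pass (limma adjusted p = 0.51 and 0.27). CBP60G was lower in CsPYL1-5m than in WT plants under iSB09, at −1.76 (SE 0.589, limma adjusted p = 0.041), a call that was lost with no filter (adjusted p = 0.064), after median-ratio scaling (0.063), with the replicate block (0.055), with limma voom (0.063) and without iSB09 replicates 1, 2 or 3 of CsPYL1-5m or replicate 3 of WT (0.068 to 0.13), and was −1.06 (adjusted p = 0.013) without replicate 2 of WT. SARD1 reads may be uncertain in part, because the gene overlaps AT1G73790 on the opposite strand over 640 bases and reads were counted without regard to strand. AT1G73790 stayed at or under 0.459 TPM. NPR1 also overlaps genes on the opposite strand, AT1G64270 over 38 bases (up to 5.59 TPM) and AT1G08667 over 214 bases (0 TPM). Whether the shared bases lie in exons was not tested for either member.

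NPR1, the salicylic acid receptor and coactivator, was at nearly the same level with and without iSB09 in CsPYL1-5m plants. It had 13.9, 13.3 and 15.03 TPM in CsPYL1-5m plants under iSB09, against 14.2, 15.3 and 14.1 TPM in mock. In WT plants it had 16.01, 22.4 and 17.6 TPM under iSB09, against 14.8, 14.3 and 14.5 TPM in mock. The CsPYL1-5m groups overlapped, and all 3 treated WT samples were above their mock samples. The log2 fold change was −0.04 in CsPYL1-5m plants (95% interval −0.22 to 0.13, and 0.11 after median-ratio scaling, so that its sign depends on the scaling) and 0.34 in WT plants (limma adjusted p = 0.13), which passed in 1 fit of all 12 samples (adjusted p = 0.038). Under iSB09 it was lower in CsPYL1-5m than in WT plants, with a log2 fold change of −0.38 (limma adjusted p = 0.043), and this did not pass after median-ratio scaling (−0.22, adjusted p = 0.23), with no filter (0.062), with the replicate block (0.066), with limma voom (0.054) or without replicate 3 of WT or any 1 of the CsPYL1-5m samples (adjusted p of 0.071 to 0.13). Among its relatives in CsPYL1-5m plants, NPR2 fell with a log2 fold change of −1.22 (limma adjusted p = 6.9e-05). NPR2 had only 24 to 31 reads in the treated samples. Its value ran from −1.74 to −0.95 over the alternatives, so that it passed each time but the call depended on the fit.

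Of the PR genes, PR1 was set apart by its level in treated WT. It had 1.196, 3.25 and 1.43 TPM in CsPYL1-5m plants under iSB09, against 3.10, 7.92 and 0.829 TPM in mock. WT plants had 12.2, 12.8 and 14.3 TPM under iSB09, against 4.71, 10.1 and 1.90 TPM in mock. The treated WT samples were close to each other and above the other 9 libraries, while both mock groups were widely spread. PR1 was lower in CsPYL1-5m than in WT plants under iSB09 by a log2 fold change of −2.56 (SE 0.286, limma adjusted p = 0.00054), 6.68-fold on mean TPM, and this call was made in each alternative and without any single library.

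The 2 responses of PR1 to iSB09 were less certain. In CsPYL1-5m plants the fitted log2 difference from mock was −0.57 (SE 0.581, limma adjusted p = 0.41), which became −1.26 (adjusted p = 0.031) without mock replicate 3 and 0.08 (adjusted p = 0.89) without mock replicate 2. In WT plants it was 1.41 (SE 0.466, limma adjusted p = 0.084), and it was called without mock replicate 2 (1.94, adjusted p = 0.036) and without both libraries numbered 2 (1.95, adjusted p = 0.018). The difference between responses was −1.98 (SE 0.873, limma adjusted p = 0.10), and −2.53 (adjusted p = 0.048) without both WT libraries numbered 2, −2.51 (adjusted p = 0.048) without WT mock replicate 2 and −2.67 (adjusted p = 0.024) without CsPYL1-5m mock replicate 3. In mock samples CsPYL1-5m and WT plants overlapped (−0.57, limma adjusted p = 0.82).

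PR2 had 1.02, 1.11 and 2.31 TPM in CsPYL1-5m plants under iSB09, against 1.43, 2.50 and 2.75 TPM in mock. In WT plants it had 3.36, 9.23 and 2.66 TPM under iSB09, against 3.40, 14.97 and 2.85 TPM in mock. The treatment groups overlapped in both genotypes, and every CsPYL1-5m sample was below every WT sample given the same treatment. Between genotypes the log2 fold change was −1.37 under iSB09 (SE 0.446, limma adjusted p = 0.037) and −1.14 in mock (SE 0.504, limma adjusted p = 0.57). The call under iSB09 was lost without iSB09 replicate 1 or 2 of CsPYL1-5m (adjusted p of 0.12 for each), after median-ratio scaling (−1.23, adjusted p = 0.064), with no filter (0.059), with the replicate block (0.060) and in 1 fit of all 12 samples (0.053), and without WT replicate 2 the gene still passed, but at −0.88 (adjusted p = 0.022).

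PR5 had 13.1, 11.4 and 10.9 TPM in CsPYL1-5m plants under iSB09, against 17.1, 16.9 and 13.9 TPM in mock. WT plants had 10.6, 25.2 and 15.6 TPM under iSB09, against 11.2, 24.6 and 17.7 TPM in mock. Treated samples were below mock samples in CsPYL1-5m plants and overlapped them in WT. PR5 fell by 0.42 on the log2 scale in CsPYL1-5m plants (SE 0.105, limma adjusted p = 0.0066), which did not pass after median-ratio scaling (−0.26, adjusted p = 0.053) or in 1 fit of all 12 samples (adjusted p = 0.23). The WT value was −0.07 (limma adjusted p = 0.91).

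**Figure D4:**
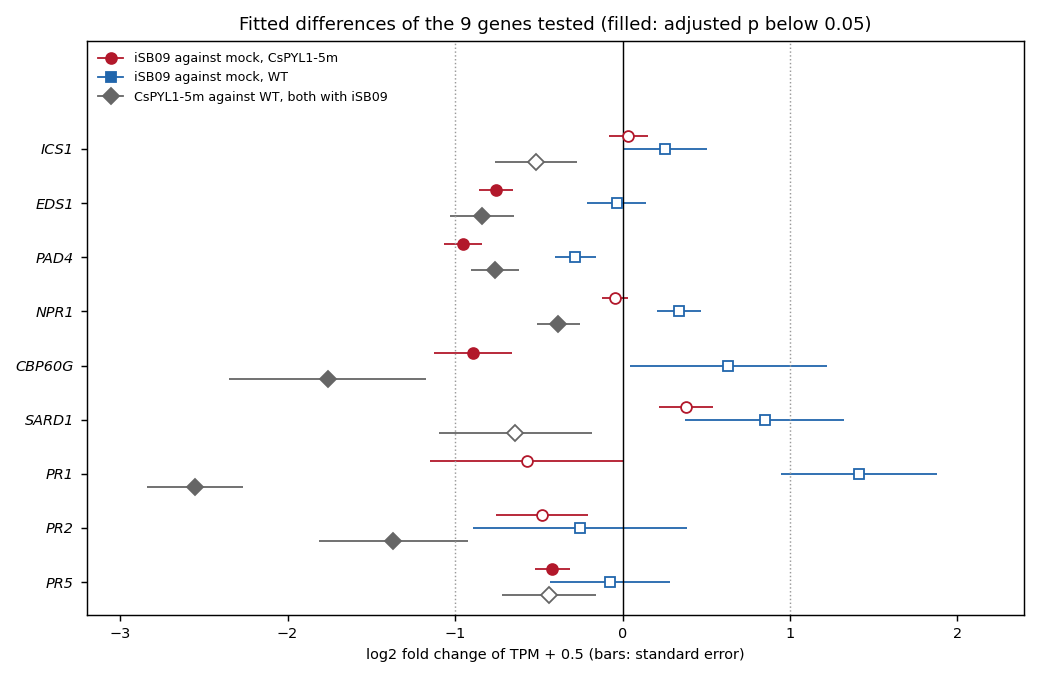
Fitted log2 fold changes of TPM + 0.5 (horizontal axis) with standard errors for the 9 members tested (vertical axis), for iSB09 against mock in CsPYL1-5m (circles) and WT (squares) and for CsPYL1-5m against WT under iSB09 (diamonds). Filled symbols have an adjusted p below 0.05 and dotted lines mark −1 and 1. In CsPYL1-5m plants EDS1, PAD4, CBP60G and PR5 are filled, all left of 0, no WT response is filled, and PR1 lies farthest left, at −2.56, between the genotypes.

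Counted over the members, 4 of the 9 tested passed as lower and 0 as higher for iSB09 in CsPYL1-5m plants, where 42.3% of all 19862 genes tested passed as lower and 24.0% as higher, so the share was close to that of all genes. None of the 9 was called, against 8.35% of all genes called lower and 9.17% called higher, and limma voom called 2, PAD4 and CBP60G. In the main limma fit 5 of 9 had an unadjusted p below 0.05, beside 13780 of the 19862 genes tested. In WT plants 0 of 9 passed, against 7.13% lower and 7.50% higher, and limma voom called 0. An unadjusted limma p below 0.05 was found for 2 of the 9, beside 6152 of the 19612 genes tested. Under iSB09, 6 of 9 passed as lower in CsPYL1-5m than in WT plants (34.9% of all genes) and 0 as higher (16.2%), and 3 were called lower (4.49%), of which limma voom called PR1 and PR2. In mock samples 0 of 9 passed, against 0.0205% lower and 0.0512% higher, and limma voom called 0. There 1 of the 9 had an unadjusted limma p below 0.05, beside 1700 of the 19530 genes tested. For the difference between the responses, 2 of 9 passed as lower (21.0% of all genes) and 0 as higher (11.8%), none was called, and limma voom called 0. For this difference 4 of the 9 had an unadjusted limma p below 0.05, beside 8787 of the 20081 genes tested. The comparisons share samples, so their counts are not independent. Medians over the 9 members were −0.48 for iSB09 in CsPYL1-5m plants, 0.25 in WT plants, −0.76 between genotypes under iSB09, −0.17 in mock samples and −0.47 for the difference, beside −0.16, 0.01, −0.17, −0.01 and −0.16 over all genes.

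Leaving out the WT libraries numbered 2 changed the WT responses as follows. Without both of them, PR1 passed at 1.95, and the other 8 members did not pass, at 0.01 for ICS1, −0.24 for EDS1, −0.29 for PAD4, 0.19 for NPR1, 0.23 for CBP60G, 0.57 for SARD1, −0.05 for PR2 and −0.13 for PR5. Between genotypes under iSB09 and without replicate 2 of WT, the same 6 members passed as lower, at −0.64 for EDS1, −0.72 for PAD4, −0.25 for NPR1, −1.06 for CBP60G, −2.57 for PR1 and −0.88 for PR2, while ICS1, SARD1 and PR5 were at −0.21, −0.14 and −0.13. In mock samples without replicate 2 of WT no member passed, with values of −0.44 to 0.17. For the difference between responses without both libraries, EDS1, PAD4, PR1 and CBP60G passed, CBP60G at −1.12 (limma adjusted p = 0.047), and the other 5 members were at −0.43 to 0.02.

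Most genes for enzymes that modify salicylic acid rose in CsPYL1-5m plants. Of 7 genes on the list of catabolism and conjugation, 5 were called higher and 1 lower under iSB09, in a comparison where 9.17% of all genes were called higher. DLO1, a salicylic acid hydroxylase, had 9.61, 9.59 and 11.02 TPM under iSB09, against 0.350, 1.07 and 0.511 TPM in mock, a log2 fold change of 3.26. That value ran from 2.77 to 4.07 over the alternatives. GH3.5, which conjugates salicylic acid and auxin to aspartate, had 93.2, 93.4 and 125 TPM under iSB09, against 19.4, 27.7 and 21.2 TPM in mock, a log2 fold change of 2.17. Treated and mock samples were far apart for both genes. BSMT1, the methyltransferase that makes methyl salicylate, had 63, 37 and 43 reads under iSB09, against 0, 0 and 1 read in mock.

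DMR6, the other hydroxylase, and the glucosyltransferase gene UGT74F2 were also called higher (1.54 and 1.195, limma adjusted p = 4.5e-06 and 0.00023), and are named after their values were seen. UGT76B1, whose product glucosylates salicylic acid and N-hydroxypipecolic acid, was called lower, at 24.8, 25.1 and 29.5 TPM under iSB09 and 47.4, 62.1 and 52.3 TPM in mock (−1.01, limma adjusted p = 4.0e-05). Its value ran from −1.04 to −0.85 over the alternatives and from −1.10 to −0.90 when a library was left out. The gene passed each time, but the call depended on the fit. The response differed between genotypes for DLO1 (2.51, limma adjusted p = 0.00092), GH3.5 (1.41, limma adjusted p = 0.0017), UGT74F2 (1.14, limma adjusted p = 0.012) and BSMT1 (2.50, limma adjusted p = 0.00026, a value that depends on the pseudocount). In WT plants only GH3.5 of this list passed, at 0.76 (limma adjusted p = 0.029), though not without any 1 of the WT mock samples or replicate 3 of treated WT (adjusted p of 0.061 to 0.10), and DMR6 in replicate 2 of treated WT, at 126 TPM, was above all other libraries.

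Among 12 known regulators of ICS1, CBP60G or SARD1, the 3 ABA-responsive NAC genes rose most in CsPYL1-5m plants. NAC072 had 331, 389 and 406 TPM under iSB09, against 7.12, 7.91 and 6.73 TPM in mock, with log2 fold changes of 5.60 in CsPYL1-5m and 2.64 in WT plants. NAC019 and NAC055, which with NAC072 are known to repress ICS1 and activate BSMT1 downstream of coronatine, had log2 fold changes of 5.54 and 3.96 in CsPYL1-5m plants and 2.50 and 1.82 in WT plants, all called. NAC055 in WT did not pass without mock replicate 3 (1.69, adjusted p = 0.055). WRKY54 was called lower in CsPYL1-5m plants (−1.30), with values of −1.97 to −0.98 over the alternatives, so not called in each. WRKY70 was called higher in WT plants (1.59, limma adjusted p = 0.044), in a comparison where 2.28% of all genes were called higher. That call was lost after median-ratio scaling (adjusted p = 0.052), with limma voom (0.058), with no filter (0.074), without any 1 of the WT mock samples (0.056 to 0.16) and without replicate 3 of treated WT (0.10). WRKY54 and WRKY70 are partly redundant regulators that restrain salicylic acid synthesis. Under iSB09, WRKY46, WRKY54 and WRKY70 were all called lower in CsPYL1-5m than in WT plants (−1.27, −1.45 and −1.39, limma adjusted p = 0.023, 0.013 and 0.014), and each of these calls was lost without 1 library or another. WRKY46 did not pass without replicate 3 of treated WT (adjusted p = 0.051) or iSB09 replicate 1 or 2 of CsPYL1-5m (0.078 and 0.075), WRKY54 without iSB09 replicate 2 of CsPYL1-5m (0.052) and WRKY70 without its iSB09 replicate 1 (0.053), and without replicate 2 of treated WT the values were −0.93, −1.10 and −0.98.

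Over all 8 lists of related genes (67 loci), 60 were tested for iSB09 in CsPYL1-5m plants, of which 21 passed as higher and 24 as lower, beside 24.0% and 42.3% of all genes. In WT plants 10 of 60 passed as higher and 2 as lower, beside 7.50% and 7.13% of all genes. Between genotypes under iSB09, 9 of 60 were called higher and 5 lower, where 6.30% and 4.49% of all genes were. For the difference between responses 9 of 61 were called higher and 3 lower, where 6.03% and 3.60% of all genes were. None of the 59 tested in mock samples passed. On the remaining lists, 4 of 12 genes of the NPR, NIMIN and TGA list passed as higher in CsPYL1-5m plants and 6 as lower, and of the 6 CBP60 relatives 1 passed as higher and 3 as lower, again beside 24.0% and 42.3% of all genes. FMO1, which makes N-hydroxypipecolic acid, was called lower in CsPYL1-5m than in WT plants under iSB09 (−1.19, limma adjusted p = 0.045), a call lost with a pseudocount of 1 (adjusted p = 0.0502), no filter (0.070), median-ratio scaling (0.079) or limma voom (0.060) and without replicate 3 of treated WT (0.079) or any 1 of the treated CsPYL1-5m samples (0.11 to 0.12), and without replicate 2 of treated WT the value was −0.70 (0.016). Of the other PR and response genes, PR3, a chitinase, was called higher (1.13) and AZI1, a lipid transfer-like protein of systemic immunity, lower (−1.53) in CsPYL1-5m plants.

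By Pearson correlation of log2(TPM + 0.5) over the 12 samples, given as a description, the genes most like ICS1 were AT4G25170 (r = 0.97), AT1G13750 (0.95) and EXT4, an extensin (0.93). Those most like PR1 were AT1G17160 (0.91), the metallothionein gene MT3 (0.88) and SEC14 (0.87). The points share libraries and depth, and the ICS1 pattern is dominated by replicate 2 of iSB09-treated WT.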

How the data were processed

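Total RNA of seedlings was sequenced as paired 100-bp reads in 12 samples. The authors trimmed with cutadapt, used HISAT2 to map the pairs over 20 nucleotides to TAIR10, kept uniquely mapping pairs and obtained unstranded counts for Araport11 genes from HTSeq-count. They tested counts with DESeq2, which the deposited units do not allow. The authors deposited TPM values, on which the main tests were made, and RPKM values, from which reads were recovered for depth, reads per gene and limma voom. Replicates were not pooled. With merged exon lengths of TAIR10.1, RPKM values fell on whole reads (within about 0.01 read) in all samples for 72.3% of detected annotated genes.

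Groups came from the sample labels. Values of log2(TPM + 0.5) entered limma 3.58.1 (in R 4.3.3), with the variance following a trend on level, in the 6 samples of a comparison, or in all 12 where responses were compared. Tests covered genes that reached 1 TPM in every replicate of at least 1 group, with Benjamini-Hochberg adjustment over all of them. A gene passed at an adjusted p below 0.05 and was called if its absolute log2 fold change was also above 1. Alternatives were pseudocounts of 0.1 and 1, no filter, median-ratio scaling, the replicate number as a block, limma voom on recovered reads, 1 fit of 12 samples, and leaving out each library. The fits were checked on simulated data.

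The 10 members, the 8 lists of related genes and the markers were chosen with earlier results of these data known. Of the lists, up to 3 called genes per direction and comparison are named, by size of change, besides all members, the 3 genes most like ICS1 and PR1, and RAB18, RD29B and PP2CA. In WT, deviations of same-numbered iSB09 and mock samples from their group means correlated at 0.16, 0.30 and 0.21 across genes, so the numbers were taken to pair the WT samples. In CsPYL1-5m the values were 0.12, −0.02 and −0.14, and the numbers were not taken to pair the samples. The main tests used no block in either genotype. Promoter windows and overlaps were read from TAIR10.1, whose locus identifiers matched 37051 of the 37336 genes. The window of PR1 is not reported here. Summaries used pandas 2.3.3 and numpy 2.4.6 in Python 3.11.15, and plots matplotlib 3.10.9.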

Additional observations from a re-analysis of the deposited data

Results flagged for a closer look

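The response to iSB09 differed between CsPYL1-5m and WT plants, by the limma test of the difference over all 12 samples (log2 response in CsPYL1-5m minus WT), for 2 members and 14 related genes that the text names. Of all 20081 genes tested, 21.0% passed as lower and 11.8% as higher. Of the 9 members tested 2 passed as lower, and of 61 related genes 15 passed as lower and 11 as higher, of which only those named are given. The members were EDS1, at −0.72 (adjusted p = 0.024), and PAD4, at −0.67 (adjusted p = 0.010). The EDS1 difference did not pass after median-ratio scaling (−0.56, adjusted p = 0.082). Nor did it pass without mock replicate 1 or 3 or iSB09 replicate 2 of CsPYL1-5m (adjusted p of 0.052 to 0.065). In genes of salicylic acid synthesis the differences were 3.17 for ICS2, −1.47 for PAL3 and 1.61 for PAL4. In genes of its modification they were 2.51 for DLO1, 2.50 for BSMT1, 1.14 for UGT74F2 and 1.41 for GH3.5. In the EDS1 family, EDS1B gave −0.89 and SAG101 gave −0.96. The helper NLR gene NRG1.2 gave −1.01, with log2 fold changes of −0.54 in CsPYL1-5m plants and 0.46 in WT plants, of which the WT value did not pass without any 1 of its 6 libraries. Among the regulators, WRKY46 gave −1.48, NAC019 gave 3.04, NAC055 gave 2.14 and NAC072 gave 2.96. Both WT libraries numbered 2 entered these tests, and without them 15 of these differences passed and that of WRKY46 did not (−1.13, adjusted p = 0.057). The WRKY46 difference also did not pass without WT mock replicate 1, CsPYL1-5m mock replicate 1 or 3 or CsPYL1-5m iSB09 replicate 1 or 2 (adjusted p of 0.055 to 0.064).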

How the results depend on the processing

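The number of members called changed with the processing. For iSB09 in CsPYL1-5m plants it was 0, and 1 with a pseudocount of 0.1, 2 with limma voom and 0 to 1 when a library was left out. In WT plants it was 0, and 1 without both libraries numbered 2 and 0 to 1 when a library was left out. For CsPYL1-5m against WT under iSB09 it was 3, and 1 with no filter, after median-ratio scaling or with the replicate block, and 1 to 5 when a library was left out. With no filter and with the block CBP60G (adjusted p = 0.064 and 0.055) and PR2 (0.059 and 0.060) were not called. CBP60G was not called with limma voom (adjusted p = 0.063), and PR2 was not called in 1 fit of all 12 samples (adjusted p = 0.053). For the difference between responses it was 0, and 1 with the replicate block (PR1, −1.98, adjusted p = 0.032), 2 without both WT libraries numbered 2 (PR1 and CBP60G) and 0 to 1 when a library was left out. The numbers were taken to pair the samples only in WT, where the block changed no call of a member. In CsPYL1-5m plants PR2 passed with the block (−0.48, adjusted p = 0.044).

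Signs turned in results that had not passed. NPR1 was 0.11 in CsPYL1-5m plants and 0.01 between genotypes in mock after median-ratio scaling, and 0.03 in mock with voom, and the difference for ICS1 was 0.02 without both WT libraries numbered 2. When libraries were left out, CsPYL1-5m values ran from −0.09 to 0.11 for ICS1 and −1.26 to 0.08 for PR1. WT values ran from −0.05 to 0.43 for ICS1, −0.24 to 0.13 for EDS1, −0.07 to 1.15 for CBP60G, −0.75 to 0.44 for PR2 and −0.39 to 0.22 for PR5. Mock values ran from −0.04 to 0.02 for NPR1, −0.46 to 0.06 for CBP60G, −0.35 to 0.05 for SARD1, −1.22 to 0.11 for PR1 and −0.39 to 0.17 for PR5. The difference ran from −0.39 to 0.09 for ICS1, −0.95 to 0.03 for SARD1 and −0.93 to 0.27 for PR2. Of the values of single genes under all alternatives, 1603 kept their direction and side of the threshold, 69 no longer passed, 25 newly passed and 28 changed sign. Why calls moved was not tested.

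With 3 samples a group, the spread of the WT libraries limits what can be seen in WT, and counts as low as those of PR1 (14 to 164 reads) limit precision. Depth differs between genotypes, and the RNA is from whole seedlings.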
